A study of Sus scrofa with 8 samples.

Results

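Porcine oviductal epithelial cells that had been in culture for 30 days were compared with the same kind of culture at 7 days. The comparison rests on 4 of the series' 8 arrays, which are those labelled 30 days (replicates 1 and 2) and those labelled 7 days (replicates 1 and 2). The other arrays, 2 each at 24h and 15 days, entered the estimate of the spread between arrays and are shown for context. Both groups came from crossbred Landrace gilts of about 9 months that had shown regular oestrous cycles, 45 of them in the labels. The epithelium was cut from the oviduct, dispersed with collagenase and then trypsin, and cultured in DMEM with fetal bovine serum and antibiotics. Time in culture is the stated difference between the groups, and no other treatment, genotype or passage is given in the labels. Cells were pooled before harvest, so an array does not stand for 1 animal. The labels name replicates 1 and 2 of a time as biological and do not state that separate pools were made for them. The p-values therefore reflect the differences between these arrays alone, which may be technical. Amplified, biotin-labelled RNA was read on 1-colour Affymetrix arrays, and each value below is a log2 expression value. Pairs of values are given as replicate 1 and then replicate 2.

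The oviductal lining is a sheet of ciliated cells, which move gametes and embryos, and secretory cells, which release glycoproteins into the oviductal fluid. Epithelial cells are held together by tight junctions, desmosomes and adhesion molecules and are filled with keratins. Cells placed in serum-containing medium usually enter a phase of division, and epithelial cultures on plastic are known to be able to lose junction genes and to gain genes of matrix-producing cells. In a bulk measurement, fewer cells of a type and less RNA per cell cannot be told apart.

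Across all probe sets, the 7-day arrays correlated with each other at r = 0.991 and the 30-day arrays at r = 0.993, whereas arrays of different times correlated at 0.960 to 0.967. Array medians over the series lay between 4.69 and 4.77. A gap of over 1 log2 unit between the 2 arrays was found for 8 named genes at 7 days, 20 at 30 days and 76 at 24h. Keratin and junction genes of epithelium were measured at both times, as described below. OVGP1, the oviduct-specific glycoprotein, read 10.46 and 11.78 at 24h. It was near the low end of the scale at 7 days (3.60 and 3.88) and at 30 days (3.51 and 3.76). The lower quartile of the 4 arrays lay between 3.37 and 3.43, and no detection calls were used, so such a level cannot be told from absence. Genes with a mean in the 7- and 30-day range of OVGP1, or lower, at 1 of the times are given no fold. They are given by their levels, their measured log2 difference or both. No fold against such a level can be relied on. Some means lay just above that range with 1 array inside it, as for UBE2C, DLGAP5 and AQP9 at 30 days and CP at 7 days. Folds given for these genes are coarse.

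Expression of 2831 of 10900 named genes differed between 30 and 7 days at a Benjamini-Hochberg adjusted p under 0.05 in limma's moderated test, which is 26.0% of the genes tested. Of these, 1291 were higher at 30 days (11.8%) and 1540 were lower (14.1%). A difference of at least 2-fold was reached by 826 of the called genes (7.58%), 341 higher and 485 lower. By measured values there were 152 genes lower and 76 higher by at least 4-fold, and 48 lower and 22 higher by at least 8-fold. The 7-day arrays lay on 1 side of the 30-day arrays in all 2831 called genes, but also in 6253 of all genes tested (57.4%). The median change over all genes was -0.01. The count depended on the arrays used: without 30 days replicate 2 it was 1885, with 988 lower. With only 2 arrays a time, changes much under 2-fold are measured coarsely (median standard error 0.13 on the log2 scale). Of 36 gene lists, 968 genes were measured and 436 of them were called.

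**Figure D1:**
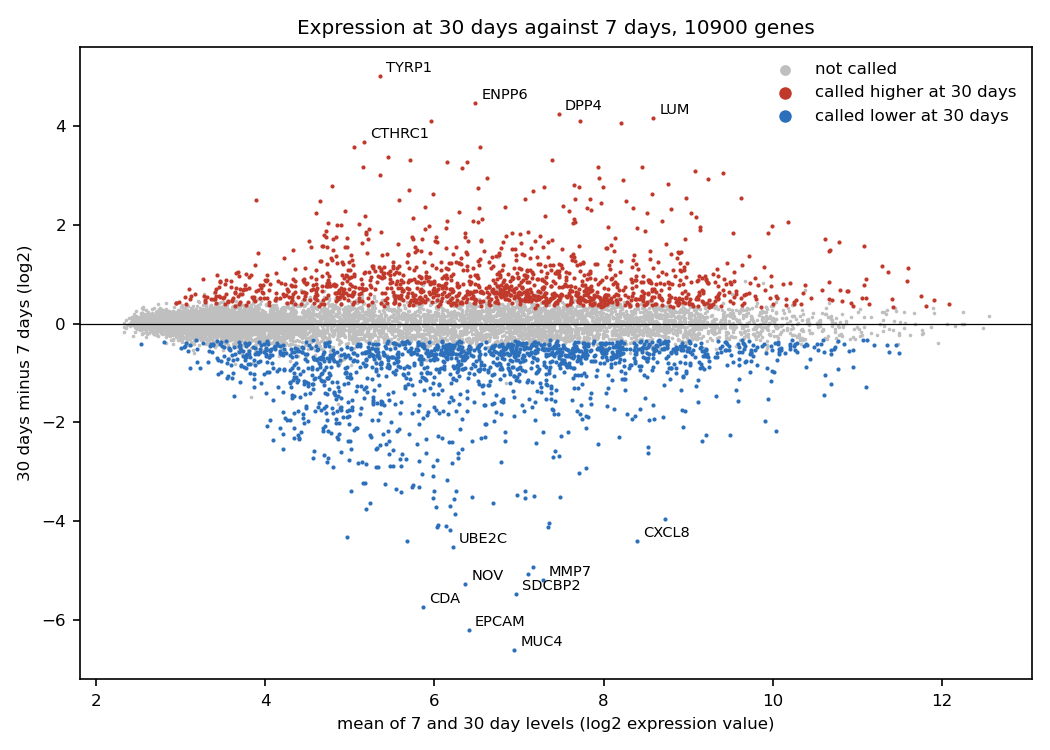
Each point is 1 of 10900 named genes. The x axis is the mean of the 7-day and 30-day levels (log2 expression value) and the y axis the difference, 30 days minus 7 days (log2). Red points were called higher at 30 days (1291), blue points were called lower (1540), and grey points were not called. The most extreme points below 0 (MUC4, EPCAM) lie farther from 0 than the most extreme point above it (TYRP1).

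The cell division programme was far lower at 30 days. Of 31 measured genes of mitosis and cytokinesis, 30 fell, 29 of them by at least 2-fold, and none rose in limma's test (0 also at an unadjusted p under 0.05). The list's median change was -2.30 against -0.01 over all genes. UBE2C, the ubiquitin-conjugating enzyme of the anaphase-promoting complex, read 8.40 and 8.55 at 7 days and 4.15 and 3.77 at 30 days. It thus lay 22.9-fold lower at 30 days (-4.52 ± 0.37, adjusted p = 2.0e-05). TOP2A, the topoisomerase that untangles sister chromatids, read 7.96 and 7.78 at 7 days and 4.30 and 4.02 at 30 days (-3.70 ± 0.24, adjusted p = 4.3e-06). CENPF, a kinetochore protein, was uneven between the 30-day arrays (5.40 and 4.36), both of which were below its 7-day levels (8.61 and 8.39). DLGAP5 and KIF20A, which act on the spindle and its midzone, fell 10.6- and 10.5-fold, and TTK, a kinase of the spindle checkpoint, went from 6.89 and 6.54 to 3.31 and 3.34. CDK1, the kinase that drives entry into mitosis, read 7.22 and 6.85 at 7 days and 4.23 and 4.37 at 30 days (-2.74 ± 0.17, adjusted p = 3.7e-06). CDC20, which activates the anaphase-promoting complex, read 7.55 and 7.39 at 7 days and 4.14 and 4.17 at 30 days (-3.31 ± 0.15, adjusted p = 5.5e-07). The exception was KIF23, a kinesin of cytokinesis, at 8.46 and 8.27 at 7 days and 8.55 and 8.44 at 30 days (0.13 ± 0.30, adjusted p = 0.825).

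The larger part of this fall lay after 15 days. The list's median change was -0.12 from 7 to 15 days and -2.28 from 15 to 30 days, comparisons that share arrays with the one described here. TOP2A still read 8.10 and 8.0 at 15 days, and KIF20A 7.91 and 7.92. The mean over the 31 genes was 7.12 and 6.84 at 7 days and 4.71 and 4.55 at 30 days. At 24h it had been 4.85 and 5.32, so the 30-day values lay below those of the first day.

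Genes of DNA replication and S phase followed: 18 of 21 fell and none rose (0 also at an unadjusted p under 0.05 in limma), with a median change of -0.93. MYBL2, a transcription factor of the cell cycle, read 7.61 and 7.66 at 7 days and 4.93 and 4.90 at 30 days (-2.72 ± 0.10, adjusted p = 2.3e-07). MCM4, a subunit of the replicative helicase, fell 6.14-fold, from 7.55 and 7.62 to 4.86 and 5.07. UHRF1, which maintains DNA methylation behind the fork, fell 4.10-fold, and CDC45, a partner of the helicase, 3.56-fold. All of these levels were separated between the times, as in every called gene. Genes of p53 response and cell cycle arrest did not fall as a list, with a median change of 0.155. Of 12 measured, 0 rose and 2 fell in limma's test, both by at least 2-fold. The called share was 16.7%, against 26.0% over all genes. At an unadjusted p under 0.05, 3 were above and 2 below. The 2 were LMNB1, a lamin of the nuclear envelope (8.19 and 8.13 at 7 days and 6.44 and 5.97 at 30 days), and PLK2, a polo-like kinase (11.20 and 11.09 at 7 days and 10.19 and 9.99 at 30 days). CDKN1A, the inhibitor p21, read 9.47 and 9.65 at 7 days and 9.71 and 9.76 at 30 days (0.18 ± 0.16, 95% interval -0.19 to 0.54, adjusted p = 0.518). MDM2 read 9.91 and 9.77 at 7 days and 9.82 and 9.99 at 30 days and CCNG1 10.88 and 10.84 at 7 days and 11.03 and 10.95 at 30 days, neither of them called. The largest change above 0 was that of TP53INP1, a p53-induced nuclear protein, at 9.33 and 9.10 at 7 days and 9.76 and 9.87 at 30 days (0.60 ± 0.21, adjusted p = 0.0622). It was called higher with centred arrays, with a trended variance, with the 4 arrays alone and without either 24h array (adjusted p = 0.00583 to 0.0429).

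Epithelial adhesion and identity genes were the other large block of decreases. Of 28 measured, 20 fell and none rose in limma's test (0 higher at an unadjusted p under 0.05), with a median change of -1.72. EPCAM, an adhesion molecule of the epithelial surface, read 9.64 and 9.38 at 7 days and 3.23 and 3.38 at 30 days. The measured difference was -6.20 ± 0.14 (adjusted p = 1.1e-08), and the 30-day levels sit at or below the lower quartile of the arrays. SPINT1, an inhibitor of membrane serine proteases, read 9.60 and 9.67 at 7 days and 4.55 and 4.60 at 30 days, which is 33.4-fold lower. PRSS8, or prostasin, a protease of the same system, fell 14.4-fold. CLDN7, a tight junction claudin, read 7.91 and 7.83 at 7 days and 3.13 and 3.81 at 30 days (-4.40 ± 0.19, adjusted p = 4.8e-07). MAL2, which takes part in transport to the apical membrane, fell 15.6-fold, from 10.81 and 10.60 to 6.82 and 6.66. AP1M2, the epithelial form of a clathrin adaptor subunit, fell from 7.36 and 6.75 to 3.36 and 3.27.

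CLDN4, OCLN and DSP, further junction genes, fell by less than CLDN7. CLDN4 read 10.90 and 10.90 at 7 days and 8.88 and 8.97 at 30 days (-1.98 ± 0.10, adjusted p = 1.3e-06). OCLN (occludin) read 9.57 and 9.59 at 7 days and 8.18 and 8.31 at 30 days. DSP (desmoplakin) read 10.44 and 10.57 at 7 days and 9.59 and 9.47 at 30 days. GRHL2, a transcription factor of epithelial identity, read 5.98 and 5.85 at 7 days and 3.93 and 4.13 at 30 days (-1.89 ± 0.14, adjusted p = 8.2e-06). The simple keratins differed from one another. KRT18 read 9.29 and 9.31 at 7 days and 7.70 and 7.17 at 30 days and fell (-1.86 ± 0.17, adjusted p = 3.6e-05), whereas KRT8, its filament partner, read 11.22 and 11.33 at 7 days and 11.45 and 11.23 at 30 days and was not called (0.07 ± 0.14, adjusted p = 0.805). KRT19 read 11.60 and 11.77 at 7 days and 11.50 and 11.06 at 30 days and was not called either (-0.40 ± 0.15, adjusted p = 0.0777); it passed the test with a trended variance and without 30 days replicate 1, at adjusted p = 0.0181 and 0.0146. TJP1, a scaffold of tight junctions, read 9.89 and 9.99 at 7 days and 9.90 and 9.71 at 30 days (-0.13 ± 0.13, adjusted p = 0.555).

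Genes of squamous, basal and wound epithelium also went down, 12 of 19, and none rose in limma's test (1 higher at an unadjusted p under 0.05). SERPINB5, or maspin, read 8.38 and 8.17 at 7 days and 4.07 and 4.13 at 30 days, an 18-fold difference. ITGB6, the integrin subunit of injured epithelium, read 8.32 and 8.05 at 7 days and 4.12 and 4.07 at 30 days. Subunits of the hemidesmosome and its ligand fell with it: LAMB3 5.83-fold, COL17A1 5.16-fold and ITGB4 4.34-fold. SFN, an adaptor protein of keratinised and glandular epithelium, read 10.62 and 10.62 at 7 days and 8.45 and 8.28 at 30 days (-2.25 ± 0.15, adjusted p = 4.2e-06). Among the integrins, ITGA2 fell from 11.11 and 11.14 to 9.12 and 8.80. ITGA11, a collagen receptor of fibroblasts, moved the opposite way, from 4.91 and 4.60 to 8.29 and 7.75 (3.26 ± 0.18, adjusted p = 1.7e-06). In the list of integrins and focal adhesion, 8 of 32 rose and 9 fell.

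Genes of oviductal secretory cells split into both directions, 8 of 22 higher and 6 lower. MUC4, a membrane mucin, had the largest measured decrease. It read 10.29 and 10.20 at 7 days and 3.82 and 3.45 at 30 days (-6.61 ± 0.16, adjusted p = 1.1e-08), and its 30-day level was in the range of OVGP1. The other membrane mucins fell as well, MUC1 from 8.14 and 8.27 to 4.86 and 4.54 and MUC20 from 7.0 and 7.15 to 4.67 and 4.80. WFDC2, an antiprotease of the reproductive tract, read 9.32 and 9.50 at 7 days and 7.76 and 7.74 at 30 days (-1.66 ± 0.15, adjusted p = 3.5e-05). PTGES, a prostaglandin E synthase, fell 3.53-fold, while PTGS2, the cyclooxygenase that supplies it, read 8.38 and 8.05 at 7 days and 8.06 and 8.09 at 30 days and was not called (-0.14 ± 0.16, adjusted p = 0.615). In contrast CP, the copper-carrying ferroxidase ceruloplasmin, rose 17.1-fold, from 4.07 and 3.76 to 7.77 and 8.25. C3, the central complement component, rose 3.54-fold.

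Of 31 measured genes of motile cilia, 29 were not called, with a median change of -0.03. The called share was 6.45%, against 26.0% over all genes. The list's mean was 3.951 and 3.973 at 7 days and 3.861 and 3.915 at 30 days, near the levels of OVGP1. Missing calls at such levels say little about whether cilia genes changed. CETN2, a centrin of centrioles and basal bodies, read 8.15 and 7.80 at 7 days and 7.83 and 7.87 at 30 days. FOXJ1, the regulator of motile ciliogenesis, read 4.35 and 5.16 at 7 days and 4.68 and 4.37 at 30 days, with the 7-day arrays further apart than the times. MYB, which acts in the early commitment of ciliated cells and in dividing progenitors, fell from 6.23 and 5.96 to 3.29 and 3.46. CFAP70, an axoneme protein, was called higher by 0.70 on the log2 scale. That call ended without 7 days replicate 2 and without 30 days replicate 2 (adjusted p = 0.0502 and 0.0802).

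**Figure D2:**
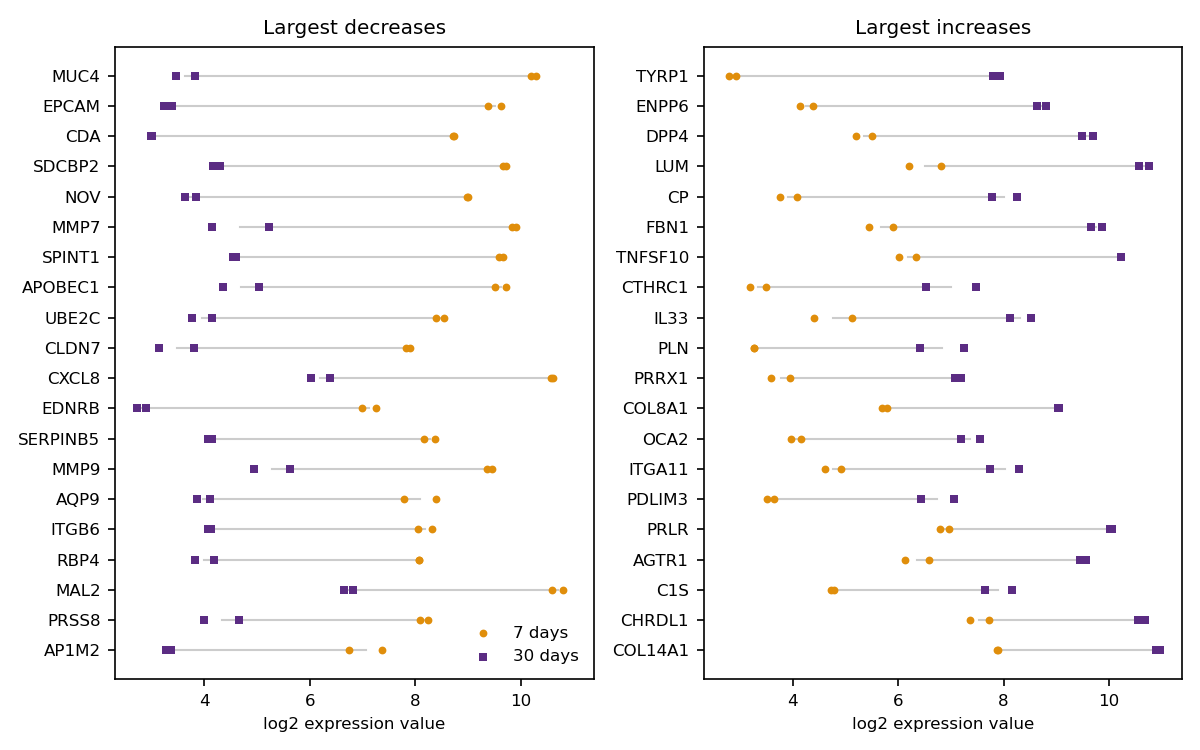
Log2 expression values of the 20 genes with the largest decrease (left) and the 20 with the largest increase (right) from 7 to 30 days, placeholder symbols passed over. Orange circles are the 2 arrays at 7 days, purple squares the 2 arrays at 30 days, and grey lines join the means. In every gene shown the arrays of the times do not overlap, as in all 2831 called genes and in 57.4% of all genes tested. The widest pairs are those of MMP7, CTHRC1 and PLN at 30 days.

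Several of the largest decreases lay outside these lists. CDA, cytidine deaminase, read 8.72 and 8.73 at 7 days and 3.0 and 2.99 at 30 days, with the arrays of a time nearly equal (-5.73 ± 0.16, adjusted p = 3.8e-08). Its 30-day level lay below the lower quartile of the arrays. SDCBP2, a scaffold protein of membranes, read 9.73 and 9.66 at 7 days and 4.30 and 4.17 at 30 days. NOV, the matricellular protein also called CCN3, read 8.99 and 9.0 at 7 days and 3.83 and 3.63 at 30 days, and APOBEC1, an RNA-editing deaminase, 9.72 and 9.52 at 7 days and 5.04 and 4.35 at 30 days. RBP4, the retinol carrier, fell 16.9-fold, and AQP9, a channel for water and glycerol, 17.3-fold. EDNRB, an endothelin receptor, read 7.25 and 6.98 at 7 days and 2.89 and 2.72 at 30 days. Each of these kept its call under all 15 alternatives run gene by gene.

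Genes of the extracellular matrix were called higher more often than lower. Of 27 collagens and collagen-processing genes, 13 rose and 2 fell, with a median change of 0.33. Of 41 proteoglycans, microfibril and matrix glycoprotein genes, 20 rose and 3 fell, with a median of 0.42. LUM, or lumican, a leucine-rich proteoglycan that binds collagen fibrils, read 6.81 and 6.20 at 7 days and 10.77 and 10.56 at 30 days. It was 17.8-fold higher at 30 days (4.16 ± 0.18, adjusted p = 4.3e-07). FBN1, the main protein of microfibrils, read 5.90 and 5.44 at 7 days and 9.87 and 9.65 at 30 days, a 17-fold difference. FBLN5 and LTBP2, which take part in elastic fibre assembly, rose 4.13- and 3.73-fold. AEBP1, a collagen-binding protein, rose 6.80-fold. OMD and ASPN are small leucine-rich proteoglycans like lumican. OMD read 3.64 and 3.15 at 7 days and 6.65 and 5.70 at 30 days, and ASPN read 2.73 and 2.56 at 7 days and 5.45 and 4.84 at 30 days. ASPN had been at 2.72 and 2.58 at 15 days, so its difference lay between 15 and 30 days.

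Among the collagens the fibrillar chains rose unequally. COL1A1, whose 7-day level was already high, went from 10.84 and 11.23 to 12.16 and 12.14 (1.12 ± 0.14, adjusted p = 3.1e-04). Its dimmer probe sets rose by more, 1.45 and 1.28. COL1A2 went from 8.91 and 9.11 to 10.94 and 11.03, COL5A2 from 6.72 and 6.54 to 8.69 and 8.68, and COL3A1 from 4.29 and 4.42 to 7.32 and 6.77. COL8A1, a network-forming collagen, had the largest rise of a collagen at 9.91-fold. Its second probe set read higher by 4.36, from a low 7-day mean of 3.04. COL14A1, a fibril-associated collagen, rose 8.26-fold. PLOD2, the lysyl hydroxylase of collagen crosslinks, rose 2.33-fold. LOXL4, a lysyl oxidase, fell (5.81 and 5.72 at 7 days and 4.50 and 4.51 at 30 days). CTHRC1, a secreted protein induced in matrix-producing cells, read 3.18 and 3.50 at 7 days and 7.48 and 6.53 at 30 days, with the 30-day arrays nearly 1 log2 unit apart and both above the 7-day ones.

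Fibroblast and mesenchymal markers did not move as a block: 8 of 28 rose and 5 fell, with a median change of 0.02. PRRX1, a homeobox factor of mesenchyme, rose from 3.59 and 3.95 to 7.19 and 7.08 (3.37 ± 0.15, adjusted p = 4.7e-07). CDH11, the mesenchymal cadherin, read 7.38 and 7.32 at 7 days and 10.21 and 10.13 at 30 days, and CDH2 9.17 and 9.11 at 7 days and 9.33 and 9.17 at 30 days with no call. THY1 read 9.09 and 9.21 at 7 days and 9.04 and 8.65 at 30 days (-0.31 ± 0.15, adjusted p = 0.194), and PDGFRB stayed low (3.23 and 3.73 at 7 days and 3.68 and 3.82 at 30 days). POSTN, or periostin, fell 2.34-fold. DCN, decorin, was lower by 0.66, a call that ended without 7 days replicate 1 and without either 30-day array (adjusted p = 0.0728 to 0.0896). Over the 7 fibroblast marker genes measured, 4 rose and 1 fell, and their mean went from 6.94 and 7.02 at 7 days to 8.36 and 8.23 at 30 days. The 4 that rose were COL1A1, COL1A2, COL3A1 and LUM, so this mean is not separate from the matrix results above. Over the 7 epithelial markers measured, 5 fell and none rose, and the mean went from 9.51 and 9.48 to 7.12 and 7.11. The part of a changing mix of cells in the matrix and junction results was not tested.

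In the list of smooth muscle, myofibroblast and stretch response genes 9 of 20 rose and 1 fell, with 4 lower at an unadjusted p under 0.05 in limma's test. ACTA2, smooth muscle actin, read 8.45 and 8.28 at 7 days and 11.06 and 10.73 at 30 days, a 5.79-fold rise (2.53 ± 0.14, adjusted p = 2.0e-06). PDLIM3, an actinin-binding protein of muscle, read 3.51 and 3.63 at 7 days and 6.43 and 7.06 at 30 days, and MYLK, the myosin light chain kinase, 7.80 and 7.92 at 7 days and 8.98 and 8.94 at 30 days. TAGLN and MYL9, which serve the same contractile apparatus, were high at both times and not called, at 11.17 and 11.39 at 7 days and 11.24 and 11.29 at 30 days and 9.84 and 10.18 at 7 days and 9.91 and 9.84 at 30 days. PLN, phospholamban, the inhibitor of the calcium pump of the sarcoplasmic reticulum, read 3.26 and 3.27 at 7 days and 6.41 and 7.25 at 30 days. It had been at 4.11 and 3.81 at 15 days. The 1 gene that fell was CYR61, a matricellular target of stretch signalling (10.40 and 10.52 at 7 days and 10.04 and 9.85 at 30 days), a call that ended without 7 days replicate 2 and without 30 days replicate 2 (adjusted p = 0.0939 and 0.127). ANKRD1, another stretch target, was uneven at 30 days and not called (7.65 and 7.25 at 7 days and 7.30 and 5.21 at 30 days; -1.20 ± 0.50, adjusted p = 0.119), but was called lower without 30 days replicate 1 (-2.24, adjusted p = 9.07e-05).

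Proteases and their inhibitors split, with 13 of 38 higher and 10 lower. MMP7, or matrilysin, an epithelial metalloproteinase, held its 7-day level at 15 days (9.90 and 9.84 and then 9.81 and 9.77) and read 5.22 and 4.15 at 30 days. That is a 36.4-fold decrease (-5.19 ± 0.27, adjusted p = 1.1e-06). MMP2, the gelatinase of stromal cells, rose (7.40 and 7.47 at 7 days and 9.25 and 9.48 at 30 days; 1.93 ± 0.12, adjusted p = 3.7e-06). MMP9, the other gelatinase, fell from 9.36 and 9.46 to 4.94 and 5.63, with a larger standard error than most (-4.12 ± 0.54, adjusted p = 3.8e-04). DPP4, a peptidase of the cell surface, rose 19-fold, from 5.49 and 5.21 to 9.48 and 9.70. TIMP3, a matrix-bound inhibitor of metalloproteinases, rose (10.29 and 10.31 at 7 days and 11.92 and 11.80 at 30 days), while TIMP1 read 9.56 and 9.82 at 7 days and 9.73 and 9.85 at 30 days with no call. RECK, a membrane-anchored inhibitor, rose 3.96-fold. For MMP14 the probe sets disagreed, since the brightest was lower by 0.46 and another was higher by 1.74.

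MMP9 is also made by macrophages, and some markers of macrophages were lower at 30 days too. In the list of macrophages and other leukocytes 10 of 35 fell and 1 rose. The called share was 31.4%, near the 26.0% over all genes. C1QB, a chain of the complement starter C1q, read 6.97 and 7.06 at 7 days and 4.58 and 4.58 at 30 days, C1QC 6.88 and 6.81 at 7 days and 4.87 and 5.11 at 30 days and FCER1G, an Fc receptor chain, 6.18 and 5.51 at 7 days and 3.81 and 3.85 at 30 days. MMP12, the macrophage metalloproteinase, fell from 5.74 and 4.72 to 3.03 and 3.22, and SLA-DRA, a class II antigen-presenting chain, from 7.52 and 7.27 to 3.91 and 4.26. These genes varied between the 24h arrays: C1QB read 5.26 and 7.74 there, MMP9 6.52 and 8.70 and SLA-DRA 6.74 and 7.85. The count of 10 was 3 without either 7-day array, 6 without either 15-day array, 2 without 30 days replicate 1 and 1 without 30 days replicate 2. C1QB, C1QC and FCER1G each lost the call when any 1 of the 4 arrays compared was left out (adjusted p = 0.0527 to 0.134) and with a trended, robust variance (0.0923 to 0.104). The second probe set of C1QB, with means of 3.54 at 7 days and 2.95 at 30 days, changed by -0.59. PTPRC, the common leukocyte antigen, read 4.55 and 3.97 at 7 days and 3.57 and 3.35 at 30 days and was not called (-0.80 ± 0.31, adjusted p = 0.0985); it was called in the fit of the 4 arrays alone, at 0.0215, and without either 24h array, at 0.0112. CD3E, of T cells, read 4.04 and 4.17 at 7 days and 4.33 and 4.26 at 30 days. The part of macrophage RNA in the MMP9, MMP12 and class II results was not tested.

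**Figure D3:**
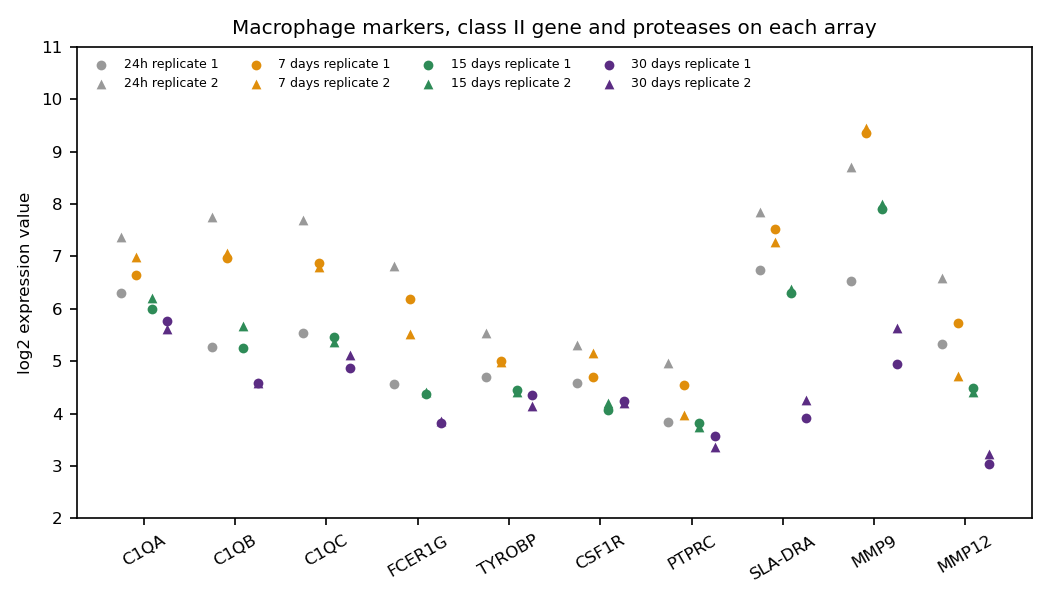
Log2 expression values of 7 macrophage or leukocyte genes, the class II gene SLA-DRA and the proteases MMP9 and MMP12 on each of the 8 arrays. Colour gives the time (grey 24h, orange 7 days, green 15 days, purple 30 days) and shape the replicate number. The 30-day values of C1QB (4.58 on both arrays) lie below both 7-day values, as in every gene called lower. The 24h arrays are the farthest apart for C1QB and MMP9.

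Interferon-stimulated genes were higher at 30 days. Of 38 measured, 18 rose and none fell in limma's test (2 lower at an unadjusted p under 0.05), with a median change of 0.54. IFIT1, which binds foreign RNA, read 6.51 and 5.99 at 7 days and 9.12 and 8.98 at 30 days, a 6.96-fold rise (2.80 ± 0.18, adjusted p = 3.6e-06). IFI44 read 5.50 and 4.79 at 7 days and 7.92 and 7.85 at 30 days. RSAD2, or viperin, read 4.87 and 4.49 at 7 days and 7.03 and 6.60 at 30 days. MX1, an antiviral GTPase, rose 3.64-fold and XAF1 3.38-fold. OAS2, which makes the activator of RNase L, read 7.26 and 7.28 at 7 days and 9.13 and 8.86 at 30 days, but OAS1 of the same family read 4.67 and 4.59 at 7 days and 4.77 and 4.59 at 30 days and was not called. STAT2 and IRF9, which together carry the type I interferon signal to DNA, read 6.94 and 6.69 at 7 days and 7.74 and 7.70 at 30 days and 7.39 and 7.33 at 7 days and 8.36 and 8.14 at 30 days. TAP1 and CXCL10, targets that respond to interferon gamma as well, read 7.90 and 8.06 at 7 days and 8.03 and 7.99 at 30 days and 3.90 and 3.89 at 7 days and 4.29 and 4.42 at 30 days. Neither was called in the fit of all arrays, and CXCL10 was called with the 4 arrays alone (adjusted p = 0.0339) and without either 24h array (0.0129). The median change was 0.43 from 7 to 15 days and 0.15 from 15 to 30 days. The 30-day level of IFIT1 stayed under that at 24h, which was 9.98 and 9.66.

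In the complement and coagulation list 10 of 31 rose, 5 fell and 16 were not called. The initiating proteases rose, C1S from 4.73 and 4.77 to 7.65 and 8.16 and C1R from 6.0 and 5.83 to 8.47 and 8.86. Their inhibitor SERPING1 rose 5.74-fold. The C1q chains were called lower, but for C1QB and C1QC the calls were not stable, as given above. C1QA was lower by 1.14, a call that ended without 7 days replicate 2 and without either 30-day array. CFD, or factor D, fell from 7.85 and 8.12 to 6.28 and 6.49 (-1.60 ± 0.14, adjusted p = 2.6e-05).

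Inflammatory mediators also split, 11 of 45 higher and 9 lower. CXCL8, the neutrophil chemokine, fell from 10.61 and 10.57 to 6.38 and 6.01, 21-fold (-4.39 ± 0.13, adjusted p = 6.4e-08). IL1A read 8.83 and 8.58 at 7 days and 6.23 and 6.04 at 30 days and LIF, an interleukin-6 family cytokine of the oviduct and uterus, 8.57 and 8.59 at 7 days and 6.92 and 6.69 at 30 days. IL6 itself read 8.83 and 8.79 at 7 days and 7.78 and 7.60 at 30 days (-1.12 ± 0.15, adjusted p = 4.2e-04). CCL2, a monocyte chemokine, was high at both times and not called (11.52 and 11.61 at 7 days and 11.56 and 11.58 at 30 days; 95% interval of the change -0.23 to 0.24). Against this IL33, an alarmin held in the nucleus, rose from 5.12 and 4.40 to 8.52 and 8.12. TNFSF10, the death ligand TRAIL, read 6.34 and 6.02 at 7 days and 10.23 and 10.23 at 30 days (4.05 ± 0.21, adjusted p = 1.0e-06). The receptor IL1R1 rose 7.47-fold while its ligand IL1A fell 5.94-fold. CSF1, the macrophage growth factor, rose from 9.95 and 9.92 to 11.38 and 11.43.

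**Figure D4:**
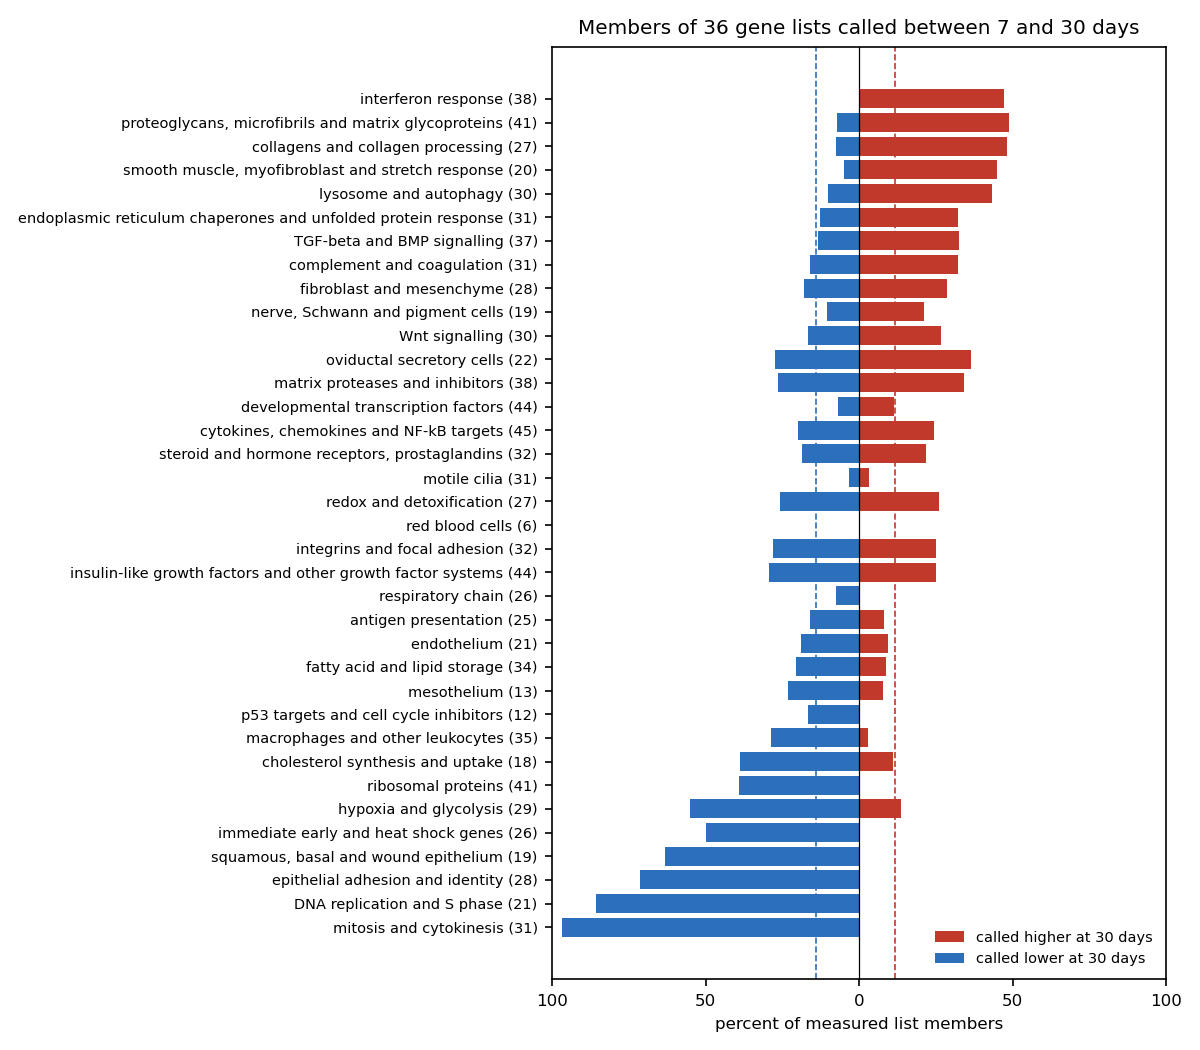
Bars give the percentage of measured members of each of 36 lists (number measured in brackets) that were called higher (red, to the right) or lower (blue, to the left) at 30 days; dashed lines mark the same over all 10900 genes (11.8% and 14.1%). Mitosis, DNA replication, epithelial adhesion and squamous genes lie far past the blue line with no red bar, and the interferon list lies past the red line with no blue bar.

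Of 5 ligands of the epidermal growth factor receptor in the growth factor list, 4 were called lower. EREG read 9.34 and 9.14 at 7 days and 6.17 and 5.31 at 30 days (-3.50 ± 0.23, adjusted p = 4.5e-06), and AREG, close to its 7-day level at 15 days (6.75 and 6.60), went from 6.96 and 6.62 to 3.41 and 3.72. EREG was already lower at 15 days (8.18 and 8.06). TGFA fell 2.67-fold. HBEGF was lower by 0.52, a call that ended under 7 alternatives (adjusted p = 0.0598 to 0.251), and BTC read 5.93 and 5.27 at 7 days and 5.75 and 5.71 at 30 days with no call. In the list of immediate early and heat shock genes 13 of 26 fell and none rose in limma's test (1 higher at an unadjusted p under 0.05). DUSP5, a phosphatase that ends ERK signalling, read 10.32 and 10.35 at 7 days and 8.24 and 7.93 at 30 days, and SPRY2, another feedback inhibitor, 7.93 and 7.83 at 7 days and 6.0 and 6.03 at 30 days. ATF3 and FOSL1, stress-induced transcription factors, fell 3.82- and 2.30-fold, and MYC read 9.11 and 9.35 at 7 days and 8.39 and 8.26 at 30 days (-0.91 ± 0.12, adjusted p = 4.5e-04). EGR1 and JUN were not called, at 7.46 and 8.03 at 7 days and 8.04 and 7.82 at 30 days and 9.69 and 9.67 at 7 days and 9.68 and 9.51 at 30 days. Over all 44 growth factor genes, 11 rose and 13 fell, the latter 8 without 30 days replicate 2. FGF2 rose from 10.94 and 10.75 to 11.79 and 11.98, and IGFBP7 2.81-fold. IGF1 was low (3.66 and 3.63 at 7 days and 3.53 and 3.67 at 30 days) and its receptor IGF1R read 8.91 and 8.99 at 7 days and 9.20 and 9.27 at 30 days, without a call.

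Hormone receptors showed 3 large differences. PRLR, the prolactin receptor, rose 8.95-fold, from 6.96 and 6.79 to 10.05 and 10.03 (3.16 ± 0.13, adjusted p = 2.6e-07). AGTR1, the angiotensin II receptor, read 6.58 and 6.12 at 7 days and 9.57 and 9.45 at 30 days, an 8.93-fold rise. EDNRB went the other way, as given above. NR3C1, the glucocorticoid receptor, rose 1.97-fold, and HSD11B1, which regenerates active glucocorticoid, fell 2.83-fold. PGR, the progesterone receptor, read 6.03 and 5.77 at 7 days and 6.13 and 5.85 at 30 days and was not called. ESR1, the oestrogen receptor, was called higher by 0.54 (6.68 and 7.05 at 7 days and 7.46 and 7.35 at 30 days), but not without 7 days replicate 1 or either 30-day array (adjusted p = 0.0605 to 0.114). Its 3 other probe sets changed by 0.31 to 0.36 and were not called when every probe set was tested (adjusted p = 0.0589 to 0.150).

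In the TGF-beta and BMP list 12 of 37 rose and 5 fell, and secreted modulators had the largest changes. CHRDL1, a BMP antagonist, rose 8.44-fold, from 7.72 and 7.36 to 10.69 and 10.55. GREM1, another antagonist, was uneven at 30 days (4.65 and 4.87 at 7 days and 5.87 and 6.87 at 30 days). NOG, or noggin, fell (6.35 and 6.26 at 7 days and 5.01 and 4.99 at 30 days), as did the ligand BMP4 (10.12 and 9.99 at 7 days and 8.77 and 8.41 at 30 days). The ligand TGFB3 rose 2.52-fold, to the uneven levels 5.92 and 4.95, and TGFBI, a matrix protein induced by the pathway, 2.50-fold, to 7.42 and 6.52. The ligand TGFB1 fell, from 8.30 and 8.55 to 7.87 and 7.75 (-0.62 ± 0.17, adjusted p = 0.0233). The receptor TGFBR2 fell too, from 9.44 and 9.50 to 9.10 and 8.78 (-0.53 ± 0.15, adjusted p = 0.0245). The TGFB1 call ended without 7 days replicate 2 (change -0.49) and without 30 days replicate 1 or 2 (-0.67 and -0.56). That of TGFBR2 ended without 7 days replicate 1 or 2 (-0.56 and -0.50) and without 30 days replicate 2 (-0.37). FST, or follistatin, was called lower (-0.91) and SMAD7 higher (0.92). In the Wnt list 8 of 30 rose and 5 fell. The secreted antagonist SFRP2 rose 5.58-fold and DKK3 2.74-fold, while the ligand WNT7A, known in the oviductal epithelium, fell from 7.54 and 7.46 to 6.02 and 5.72. CTNNB1, or beta-catenin, read 10.59 and 10.44 at 7 days and 10.59 and 10.48 at 30 days.

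Genes of glucose use were lower, 16 of 29 in the hypoxia and glycolysis list with 4 higher. HK2, an inducible hexokinase, read 7.66 and 7.59 at 7 days and 5.77 and 5.41 at 30 days (-2.03 ± 0.25, adjusted p = 2.7e-04). PFKFB3, which makes the activator of phosphofructokinase, fell 3.44-fold and LDHA, lactate dehydrogenase, 2.70-fold. Other enzymes of the pathway fell by less than LDHA: TPI1 read 10.54 and 10.39 at 7 days and 9.51 and 9.52 at 30 days, PGK1 10.44 and 10.33 at 7 days and 9.75 and 9.77 at 30 days and GAPDH 11.79 and 11.79 at 7 days and 11.21 and 11.19 at 30 days, all lower. TXNIP, an inhibitor of glucose uptake and of thioredoxin, rose 7.73-fold, from 6.74 and 6.20 to 9.36 and 9.48, with its 15-day level already at 9.46 and 9.42. The transcription factor EPAS1 rose (8.25 and 8.51 at 7 days and 9.50 and 9.54 at 30 days), and HIF1A read 11.09 and 11.10 at 7 days and 11.21 and 11.23 at 30 days with no call. The respiratory chain showed few calls, 0 of 26 higher and 2 lower in limma's test (0 and 6 at an unadjusted p under 0.05). The called share was 7.69%, against 26.0% over all genes, and the median change was -0.09.

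The cholesterol synthesis list was lower at 15 days than at 7 or 30 days. Its mean was 7.82 and 7.76 at 15 days, against 8.97 and 8.86 at 7 days and 8.68 and 8.73 at 30 days, and the 24h arrays were about as low (7.87 and 7.82). The list's median was -1.20 from 7 to 15 days and 0.95 from 15 to 30 days, which left -0.17 between 7 and 30 days, with 7 of 18 lower and 2 higher. HSD17B7, a sterol reductase, read 8.59 and 8.28 at 7 days, 6.67 and 6.67 at 15 days and 7.42 and 7.33 at 30 days (-1.06 ± 0.13, adjusted p = 2.3e-04 for 30 against 7 days). STARD4, a sterol carrier, fell 2.26-fold. HMGCS1 and SQLE, enzymes earlier and later in the path, read 10.71 and 10.61 at 7 days and 10.44 and 10.62 at 30 days and 9.44 and 9.24 at 7 days and 9.34 and 9.29 at 30 days, without a call. FABP5, an epithelial fatty acid carrier, fell from 5.72 and 5.29 to 3.13 and 3.23, and ACADL, an enzyme of fatty acid oxidation, rose 2.55-fold.

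Of 30 lysosome and autophagy genes 13 rose and 3 fell, with a median of 0.20. GABARAPL1, a protein of the autophagosome membrane, read 8.15 and 8.16 at 7 days and 9.52 and 9.69 at 30 days (1.45 ± 0.13, adjusted p = 3.0e-05). CTSK, a collagen-cleaving cathepsin, rose from 10.72 and 10.70 to 11.89 and 11.84, and LIPA, the lysosomal lipase, 1.95-fold. LAMP2 read 10.30 and 10.21 at 7 days and 10.99 and 11.18 at 30 days, while LAMP1 read 9.23 and 9.47 at 7 days and 9.50 and 9.50 at 30 days with no call. In the list of endoplasmic reticulum chaperones and unfolded protein response 10 of 31 rose and 4 fell. The sensor EIF2AK3 rose 1.97-fold and ASNS, a target of the amino acid response, fell 1.64-fold. The 10 became 6 without 7 days replicate 2 and 5 without 30 days replicate 1.

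Ribosomal protein genes were lower in 16 of 41 and higher in none by limma's test (0 also at an unadjusted p under 0.05), with 39 of 41 changes below 0 and a median of -0.29. RPSA fell 2.34-fold and RPL36 1.92-fold. The count of 16 ranged from 5 (without 30 days replicate 2) to 25 (with a trended, robust variance); it was 6 without 7 days replicate 2 and 10 without 30 days replicate 1 or with the 4 arrays alone. The median was -0.24 with the arrays centred and -0.30 after a further quantile normalization. In the redox list 7 of 27 rose and 7 fell. GSTM3, a glutathione transferase, fell from 8.21 and 8.16 to 5.35 and 5.41, and ALDH2 rose 2.27-fold.

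The largest measured rise was that of a pigment gene. TYRP1, an enzyme of melanin synthesis, read 2.79 and 2.91 at 7 days and 7.80 and 7.93 at 30 days (5.01 ± 0.12, adjusted p = 1.1e-08), with 7-day levels below the lower quartile of the arrays. At 15 days it was still at 3.32 and 3.14. OCA2, a melanosome membrane protein, rose from 4.15 and 3.97 to 7.19 and 7.55. MITF, the transcription factor of pigment cells, rose from 5.72 and 5.58 to 7.96 and 8.07, and its other probe sets rose by 2.38 and 2.09. Other genes of pigment cells were low at both times and were not called. TYR, the first enzyme of melanin synthesis, read 2.84 and 3.03 at 7 days and 3.19 and 3.12 at 30 days, DCT 3.17 and 3.15 at 7 days and 2.84 and 3.19 at 30 days, MLANA 2.98 and 3.26 at 7 days and 3.27 and 3.56 at 30 days and PMEL 4.06 and 4.20 at 7 days and 4.01 and 4.04 at 30 days. SOX10, of neural crest cells, read 4.46 and 5.08 at 7 days and 4.59 and 4.52 at 30 days. In this list of 19 nerve, Schwann and pigment genes 4 rose and 2 fell, a called share of 31.6% against 26.0% over all genes. The fourth riser was NCAM1, a neural cell adhesion molecule (7.90 and 8.13 at 7 days and 10.37 and 9.98 at 30 days).

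Developmental transcription factors were mostly not called, 36 of 44. The called share was 18.2%, against 26.0% over all genes, with 5 higher and 3 lower. HAND2, a factor of reproductive stroma and heart, was the exception in size, at 3.64 and 4.06 at 7 days and 6.87 and 6.83 at 30 days (3.0 ± 0.19, adjusted p = 3.3e-06). It had been at 4.29 and 3.92 at 15 days. SOX9 fell 1.85-fold and GATA3 rose 1.79-fold. WT1, which marks mesothelium and stroma, read 8.52 and 8.67 at 7 days and 8.49 and 8.46 at 30 days and was not called (-0.12 ± 0.11, adjusted p = 0.531). Among markers of other cell types, VWF and KDR of endothelium were low and not called (3.87 and 3.78 at 7 days and 3.71 and 3.85 at 30 days; 3.23 and 3.39 at 7 days and 3.48 and 3.37 at 30 days). In the endothelium list 4 of 21 fell and 2 rose, a called share of 28.6%, close to the 26.0% over all genes. Those that fell were ENG (5.99 and 5.64 at 7 days and 4.96 and 4.89 at 30 days), FLT1 (6.64 and 6.71 at 7 days and 6.03 and 5.52 at 30 days), FLT4 (5.57 and 5.64 at 7 days and 5.03 and 4.85 at 30 days) and LMO2 (5.80 and 5.87 at 7 days and 4.18 and 4.84 at 30 days), and those that rose were PECAM1 (1.71-fold) and MMRN2 (3.59 and 3.61 at 7 days and 4.15 and 4.09 at 30 days). FLT4 and PECAM1 kept the call under all 15 alternatives, while ENG, FLT1, LMO2 and MMRN2 lost it under 1 to 3 of them. In the mesothelium list 3 of 13 fell and 1 rose, a called share of 30.8%, also near that over all genes. KRT18, which epithelium shares, fell as given above, BNC1 read 5.26 and 4.98 at 7 days and 4.48 and 4.44 at 30 days and PODXL 10.25 and 10.49 at 7 days and 10.06 and 9.59 at 30 days, while UPK1B rose (10.22 and 10.18 at 7 days and 10.83 and 10.59 at 30 days). PODXL lost its call under 6 alternatives and UPK1B under 3. CALB2 of mesothelium and HBB of red blood cells were at the low end throughout (2.86 and 3.05 at 7 days and 3.0 and 2.81 at 30 days; 2.83 and 3.0 at 7 days and 2.74 and 3.0 at 30 days).

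**Figure D5:**
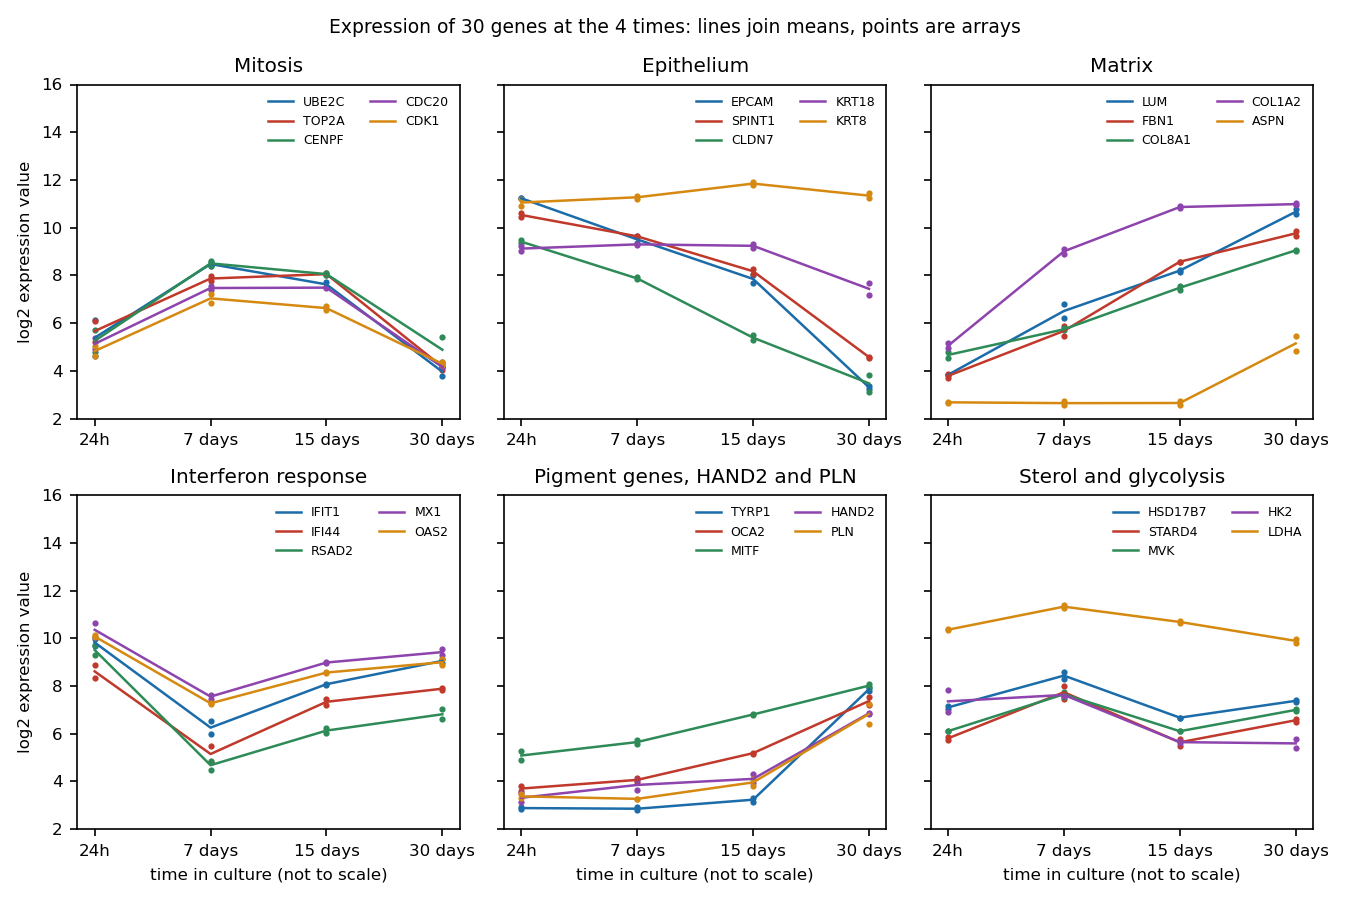
Log2 expression values of 30 genes at 24h, 7, 15 and 30 days; points are the 2 arrays of a time, lines join their means, and the time axis is not to scale. The mitosis genes hold their level from 7 to 15 days and are near 4 to 5 at 30 days, the matrix genes LUM, FBN1 and COL8A1 climb at each step, TYRP1, HAND2 and PLN rise after 15 days, and the sterol genes are lower at 15 days than at 7 or 30 days.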

How the data were processed

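The values the authors deposited are log2 expression values made with RMA, per the submitters' processing notes. The scale was inferred from their range. RMA corrects background, gives all arrays nearly the same distribution and summarises probes, so a shift of most genes in 1 direction would not show. The sources used here give no software version, annotation build or filter. Of 27558 probe sets, 11967 had 1 gene symbol in the platform annotation, 15211 had none and 380 were set aside for several symbols or conflicting identifiers. RefSeq genes of Sscrofa11.1, used for names only, held the gene identifiers of 11183 probe sets. For the 966 genes with several probe sets the one with the highest mean was used, which left 10900 genes, 1216 under placeholder symbols.

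With limma 3.58.1 in R 4.3.3 (lmFit, eBayes), all 8 arrays were fitted with 1 mean per time and 4 residual degrees of freedom, and 30 minus 7 days was tested two-sided. A gene is called where its p, adjusted by Benjamini-Hochberg across 10900 genes, is under 0.05; errors are standard errors of the log2 change. Named genes are the 20 largest called increases and decreases (placeholder symbols passed over, 1 in each direction) and up to 6 called members of each of 36 lists, or the brightest 3 members where under 3 were called. Markers of cell types and other list members are named too, the latter chosen after their values were seen. The comparison and the lists were chosen with earlier results of these data known. Lists have no test of their own. In data simulated for 30 against 7 days over 10900 genes, 84 of 100 genes changed by 2-fold and 99 of 100 changed by 4-fold were called, with 12 unchanged genes called. Only these genes were moved, and the noise was drawn independently for each array. The rates therefore need not hold in the measured data, where 26.0% of genes were called. Alternatives were median centring, quantile normalization, a filter that drops the dimmest 25% of genes, averaged probe sets, all probe sets, a trended robust variance, only the 4 arrays compared, a replicate block and each array left out. Promoter motifs were not analysed here.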

Additional observations from a re-analysis of the deposited data

How the results depend on the processing

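Of 205 genes named by rule, 194 were called, and 169 of these kept call and direction under all 15 alternatives run gene by gene, among them the 40 largest changes; 25 lost the call under at least 1, and 0 were reversed. Of 55 called genes named outside the rule, 37 kept the call under all of these and 1 was reversed. Of the genes named by rule, those lost numbered 16 or 17 without either 7-day or either 30-day array and 0 to 4 elsewhere. When probe sets of a gene were averaged, MMP14 and LYZ, named outside the rule, reversed to 0.27 and -1.18; LYZ was not called with its brightest probe set. With every probe set tested, 5092 were called (2427 higher, 2665 lower) and 1603 of them by at least 2-fold. Leaving out each array in turn gave 1885 to 2970 called genes, 893 to 1346 higher, 988 to 1624 lower and 799 to 865 changed by at least 2-fold. The same gave 8 to 14 growth factor genes lower, 5 to 18 ribosomal protein genes lower, 5 to 10 chaperone and unfolded protein genes higher and 1 to 12 leukocyte genes lower. A trended, robust variance gave 25 ribosomal protein genes lower, and the 4 arrays alone 10; the cause was not tested. With the replicate number as a block 2965 genes were called, 2793 of them called without it, and 0 named genes lost the call. Deviations of same-numbered arrays correlated at 0.09 between 7 and 30 days and at 0.01 to 0.27 between the other times, so the numbers were not taken as pairs. Centring moved the median change of all genes from -0.01 to 0.04 and gave 1445 higher and 1363 lower. With 2 arrays a time, genes with small changes are near the limit of what can be called, and the dim end of the scale has no detection calls.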

Other observations

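Of 15591 probe sets that were unnamed or left out here, 2408 were called between 7 and 30 days when every probe set was tested, 1215 higher and 1193 lower at 30 days. CD79A, a marker of B cells, read 10.14 and 10.23 at 7 days and 9.97 and 9.88 at 30 days, and its second probe set averaged 4.19 at 7 days and 4.18 at 30 days; neither was called when every probe set was tested. ENPP6, a choline-specific phosphodiesterase, rose from 4.38 and 4.13 at 7 days to 8.80 and 8.63 at 30 days, with a 15-day mean of 8.90. CD83, listed with leukocyte genes, rose from 6.07 and 6.25 to 7.80 and 7.55 while C1q and Fc receptor chains of that list fell. For LYZ, lysozyme, the brightest probe set was not called (0.20), and another read lower by 2.56.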
